A study of Homo sapiens with 32 samples.

Results

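The 10 genes described here are NRF1, GABPA and 8 nuclear genes listed under mitochondrial DNA transcription (TFAM, TFB1M, TFB2M, POLRMT) or replication (TWNK, POLG, POLG2, SSBP1). They were taken by name, not by a rule on measured values, from 19962 protein-coding genes on chromosomes 1 to 22 and X. The choice was made with earlier results of these data known. All 10 were found in the GENCODE 44 annotation of hg38. For each gene, every summit within 2000 bp of its 5′ end was read from 4 lists of ChIP-seq summits. A summit is a position of locally strongest signal in a called peak, and a peak may hold several.

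All 32 samples were cultures of HEK_CloneZD29, 1 clone of the established kidney-derived line HEK293T in which ZNF143 carries an inducible degron tag. Every group shared this tagged background. Cells were either left untreated or given 50 nM dTAGV-1, a small molecule that sends the tagged protein for degradation, for 30 minutes. The SP1, NRF1 and YY1 antibodies had 4 untreated and 4 treated samples each, and the HA antibody against tagged ZNF143 and the mock precipitation had 2 of each. The genotype is given in the labels of the SP1, ZNF143 and mock samples, and for the NRF1 and YY1 samples it stands in the growth protocol only. Each antibody had 1 list for untreated and treated samples together, or, for NRF1 and YY1, a list whose samples were not stated. The lists hold no expression, so the cell line could not be checked against markers. No value belonged to a sample or a treatment, so no spread between replicates, no test and no effect of dTAGV-1 could be given.

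The lists held 16165 ZNF143, 126181 SP1, 39180 NRF1 and 106578 YY1 summits on the chromosomes used. The score of a summit was taken, from the layout and range of the lists, as −log10 of either a p-value or a q-value. Which of the pair is not stated. The score depends on sequencing depth, which is unknown here, and was read only within its list. Rank is therefore given as a percentage of the list, where a small value means a strong summit, and a summit in the top 10% is called strong. The lowest score in that class was 1684 in the ZNF143 list and 229 in the SP1 list, and 354 and 142 in the NRF1 and YY1 lists. Offsets are in bp from the 5′ end of the gene, negative upstream.

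NRF1, nuclear respiratory factor 1, binds GC-rich palindromic sites as a dimer and is known as an activator of nuclear genes that serve mitochondria. GABPA is the DNA-binding subunit of GA-binding protein, also called nuclear respiratory factor 2, and recognises the ETS site. Mitochondrial DNA encodes few proteins, so its polymerases, transcription factors and helicase are all made from nuclear genes and imported. The TFAM promoter is a textbook target of NRF1, GABP and SP1.

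The NRF1 consensus, searched as GCGCANGCG on both strands with N for any base, lay within 50 bp of the highest NRF1 summit at 7 of the 10 genes. The stretches below show these copies with their surroundings, because the strongest NRF1 summits at these genes sat on or beside them. Each is hg38 sequence on the strand of the gene, 5′ to 3′, and capitals mark the consensus, including overlapping copies on the other strand.

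GABPA (chr21:25735156-25735184): ttgctctgtaCGCATGCGCtctttgagtg

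TFAM (chr10:58385332-58385372): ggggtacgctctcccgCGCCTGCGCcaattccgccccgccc

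TFB1M (chr6:155314591-155314632): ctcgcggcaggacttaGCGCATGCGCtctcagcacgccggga

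TFB2M (chr1:246566253-246566293): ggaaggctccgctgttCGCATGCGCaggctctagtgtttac

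POLRMT (chr19:633531-633577): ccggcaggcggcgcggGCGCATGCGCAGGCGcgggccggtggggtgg

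TWNK (chr10:100987272-100987312): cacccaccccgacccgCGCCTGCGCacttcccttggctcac

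POLG2 (chr17:64497043-64497083): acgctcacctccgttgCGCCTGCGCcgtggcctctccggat

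The NRF1 summit lay 2 bp from the middle of the copy at GABPA, 9 bp at TFAM, 13 bp at TFB2M, 10 bp at POLG2 and 32 bp at TWNK. TFB1M held 2 overlapping copies, the nearer 3 bp from the summit. POLRMT held 3 overlapping copies, the nearest 10 bp away, and it had the strongest NRF1 summit of the set. Among all protein-coding genes with an NRF1 summit, 22.4% had the consensus within 50 bp of the highest one. The share was 61.2% where that summit was strong and 4.07% where it was not. All 7 genes with the consensus had a strong NRF1 summit, so 7 of 8 stands beside 61.2%, and the exception was the NRF1 gene. With 1 mismatch allowed, the NRF1 gene also had a match and POLG and SSBP1 did not, beside 55.2% of all protein-coding genes with an NRF1 summit.

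All 10 genes had an NRF1, an SP1 and a YY1 summit within 2000 bp, and 9 had a ZNF143 summit. In all protein-coding genes the shares were 55.8% for NRF1, 66.5% for SP1, 65.3% for YY1 and 37.4% for ZNF143. Summits of all 4 lists were present at 9 of the 10 genes, beside 35.3% of all protein-coding genes. Many of those genes lack summits of the other lists. Of the 10956 protein-coding genes with NRF1, SP1 and YY1 summits, 7046 also had a ZNF143 summit. The exception was TFB2M, which had no ZNF143 summit.

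A strong NRF1 summit was present at 8 of the 10 genes, beside 17.9% of all protein-coding genes. To leave out genes that carry no other factor, the share was also taken over the 12673 genes with both an SP1 and a YY1 summit, where it was 28.0%. Strong YY1 summits were also present at 8 genes (33.1% of all), strong SP1 summits at 5 (31.1%) and strong ZNF143 summits at 2 (7.52% of all, and 11.7% of those with SP1 and YY1 summits). The median rank of the highest summit among the genes with one was 5.46% for NRF1, 2.89% for YY1, 8.76% for SP1 and 21.9% for ZNF143. Over all genes with a summit it was 17.3%, 9.74%, 10.8% and 37.7%. The medians of the 10 genes thus lay on the strong side in all 4 lists, as did the counts when set beside all genes. Many genes have no summit, however. Of the 13278 protein-coding genes with an SP1 summit, 6213 had a strong one, so the SP1 count of 5 in 10 lay near that share. The ZNF143 count, 2 of 9, also lay near its share, 1502 of 7462. For NRF1 it was 3578 of 11148 and for YY1 6616 of 13038, beside 8 of 10 for each. These differences were not tested.

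**Figure D1:**
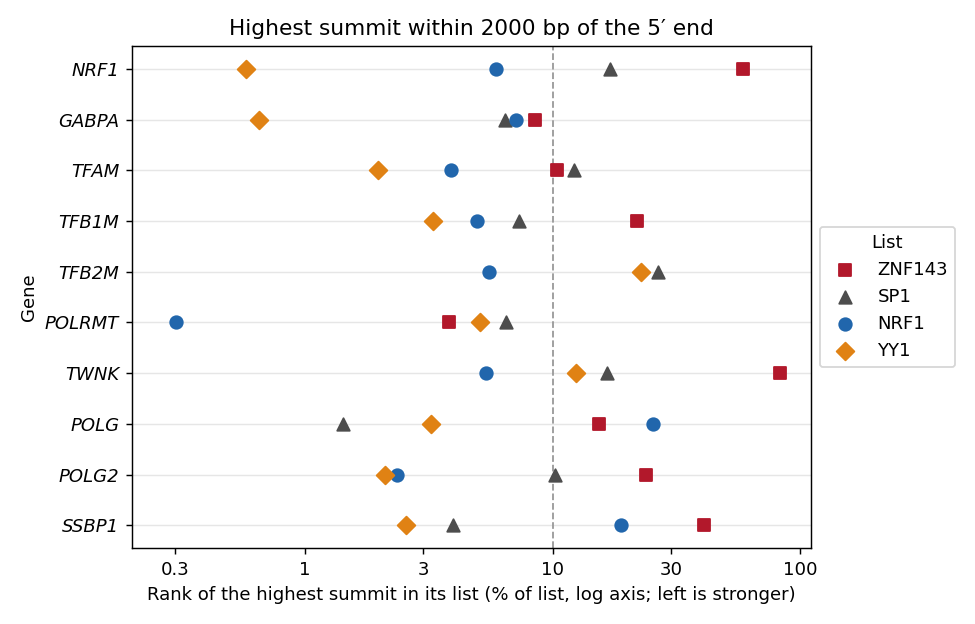
Rank of the highest summit within 2000 bp of each gene's 5′ end, as a percentage of its list on a log axis, with 1 symbol per list and a dashed line at 10%. NRF1 symbols of 8 genes lie left of the line and those of POLG (25.3%) and SSBP1 (18.8%) lie right of it, while ZNF143 symbols run from 3.81% at POLRMT to 82.4% at TWNK and TFB2M has none.

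**Figure D2:**
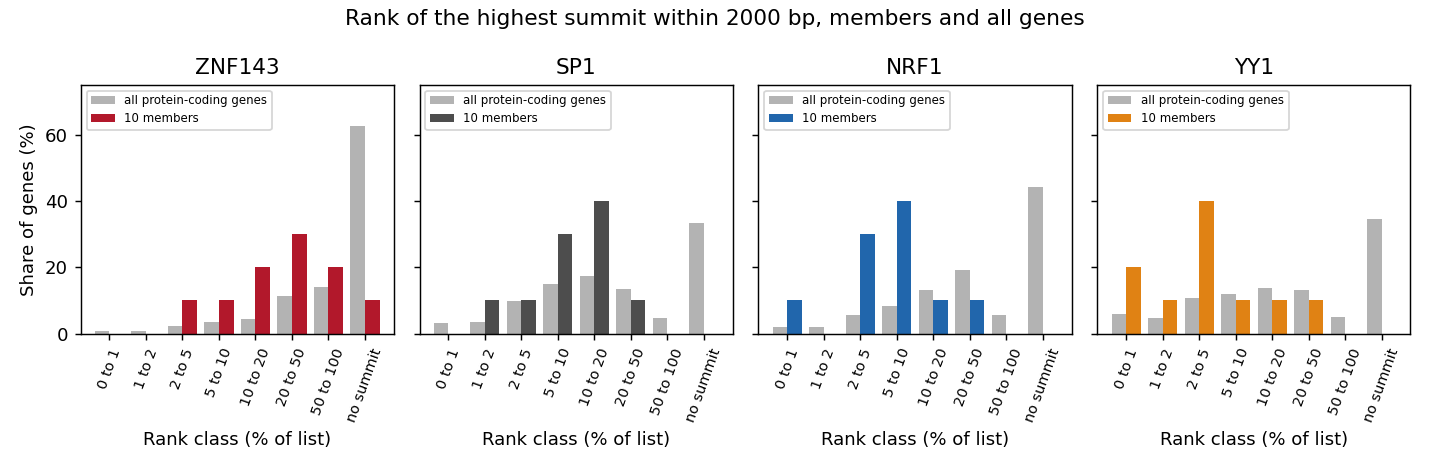
Share of genes in each class of rank of the highest summit (percentage of the list, above the lower and up to the upper number), for all 19962 protein-coding genes in grey and the 10 genes in colour, with 1 panel per list. In the NRF1 panel 4 of the 10 genes fall in the class from 5 to 10%, beside 8.21% of all genes, and none is without a summit, beside 44.2%.

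The regulators came first. The NRF1 gene (ENSG00000106459.15, chr7:129611720-129757082, plus strand) carried a summit of its own protein at +85 bp, in a 5′ untranslated exon, with a score of 2170 and a rank of 5.90%. No exact copy of the consensus lay within 50 bp of it. The only copy within 1000 bp of the 5′ end was at −270 bp, 351 bp from the nearest NRF1 summit. The YY1 summit of the NRF1 gene, at −118 bp with a score of 2724 and a rank of 0.576%, was the strongest YY1 summit of the 10 genes. SP1 was at −69 bp (score 109, rank 17.0%) and ZNF143 at −75 bp (score 9.77, rank 58.5%). At this gene, strong NRF1 and YY1 summits thus stood with a weak ZNF143 summit 6 bp from the SP1 summit.

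The NRF1 gene also bore many further summits. It carried 4 NRF1, 4 SP1 and 5 YY1 summits, and the further ones reached from −920 to +1973 bp. The further NRF1 summits scored 13.3, 6.47 and 3.75, far below the highest, with ranks from 30.8% to 71.2%. The further YY1 summits, with scores from 41.6 to 99.0, had ranks from 13.7% to 26.5%. The YY1 summit at +1973 bp was the outermost inside the limit of 2000 bp at any of the genes, and the nearest beyond it was an SP1 summit of the same gene at +2046 bp with a score of 26.5.

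GABPA (ENSG00000154727.11, chr21:25734570-25772460, plus strand) was the gene where all 4 highest summits were strong, and the only such gene beside POLRMT. The share of all genes with 4 strong summits was not taken. The annotated 5′ end of GABPA belongs to a longer transcript, and the Ensembl canonical transcript begins 402 bp further downstream. From the canonical start, ZNF143 lay at +21 bp, SP1 at +51, YY1 at +130 and NRF1 at +200, all in the 5′ untranslated exon. The ZNF143 score was 2542 (rank 8.51%), the SP1 score 373 (6.42%), the YY1 score 2509 (0.650%) and the NRF1 score 1283 (7.10%). The summits stood in the same order as the exact consensus copies of ZNF143, YY1 and NRF1, and each of these lay within 50 bp of the highest summit of its own factor.

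GABPA was the only one of the genes with an exact ZNF143 or YY1 consensus at the highest summit of that factor. The shares over all protein-coding genes with the summit were 5.15% for ZNF143 and 7.16% for YY1. The ZNF143 copy (its consensus has ambiguous positions and is named only) and the YY1 copy, searched as AANATGGCG, are shown in capitals on the strand of the gene, where both read as the complement.

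GABPA, ZNF143 consensus (chr21:25734936-25734977): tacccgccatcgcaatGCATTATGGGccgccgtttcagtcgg

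GABPA, YY1 consensus (chr21:25735093-25735121): gcacagcctcCGCCATCTTttcttcgcct

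A second ZNF143 summit at GABPA, at +759 bp from the annotated 5′ end, scored 2279 (rank 8.91%), nearly as high as the main one. It was the highest of the 4 further ZNF143 summits at the 10 genes. The 5′ end of ATP5PF, a subunit gene of ATP synthase on the opposite strand, lay at +1103 bp. Summits between the starts cannot be assigned to either gene.

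The transcription genes had NRF1 summits close to their starts. TFAM (ENSG00000108064.11, chr10:58385345-58399220, plus strand) encodes the protein that packages mitochondrial DNA and bends its promoters. Its NRF1 summit lay at −2 bp, 67 bp upstream of the canonical start, with a score of 4307 and a rank of 3.88%. The other factors were downstream of it: SP1 at +88 bp (score 178, rank 12.2%), ZNF143 at +97 bp (score 1531, rank 10.4%) and YY1 at +152 bp (score 851, rank 1.97%). Those 3 lay in the 5′ untranslated exon of the canonical transcript. The ZNF143 score of 1531 was just under the bound of the strong class.

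At TFAM the SP1 consensus, searched as GGGGCGG on both strands, occurred at +17, +22 and +27 bp, in overlapping copies just after the NRF1 copy. The nearest was 58 bp from the SP1 summit, and the copies lay nearer to the NRF1 summit, at 22 to 32 bp. No exact ETS copy, searched as CCGGAAG on both strands, lay within 1000 bp of the TFAM 5′ end. That says only that these letters were not there.

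POLRMT (ENSG00000099821.14, chr19:617221-633537, minus strand) encodes the mitochondrial RNA polymerase and had the strongest NRF1 and ZNF143 summits of the 10 genes. NRF1 scored 14646 at −30 bp, number 118 of the list (0.301%). ZNF143 scored 7097 at −67 bp (rank 3.81%). SP1 at −109 bp (score 371, rank 6.47%) and YY1 at +16 bp (score 289, rank 5.10%) completed a cluster of 125 bp. The stretch from −120 to −6 bp (chr19:633543-633657) is shown because 3 of the 4 summits fall in it. Capitals mark an ETS copy and then the 3 overlapping NRF1 copies.

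POLRMT: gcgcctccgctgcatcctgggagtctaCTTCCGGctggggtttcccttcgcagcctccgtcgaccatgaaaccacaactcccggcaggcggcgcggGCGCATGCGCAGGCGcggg

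The ETS copy lay 19 bp from the SP1 summit and 23 bp from the ZNF143 summit. No exact ZNF143 consensus was found within 1000 bp of the POLRMT 5′ end, although its ZNF143 summit was the strongest of the set. The stretch does hold a near match, gcatcctggg, which begins at −109 bp and lies within 50 bp of that summit. Read on the other strand, it differs from the ZNF143 consensus at 1 base. Such near matches were common at these genes: with 1 mismatch allowed, 8 genes had this consensus within 50 bp of any summit, beside 2 with an exact copy. The share over all genes was not taken for this measure.

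TFB1M and TFB2M are related to bacterial rRNA methylases: TFB2M opens mitochondrial promoters with the polymerase, and TFB1M methylates the small ribosomal RNA. Their NRF1 summits were alike in rank, 4.94% at TFB1M (score 3034, −115 bp) and 5.54% at TFB2M (score 2474, −25 bp). Their other summits were not alike in rank. TFB1M (ENSG00000029639.11, chr6:155256134-155314493, minus strand) had ZNF143 at −143 bp (score 98.3, rank 21.9%), SP1 at −470 bp (score 329, rank 7.30%) and YY1 at +121 bp (score 467, rank 3.28%). TFB2M (ENSG00000162851.8, chr1:246540561-246566261, minus strand) had no ZNF143 summit, and its SP1 (score 49.2, rank 26.7%, −148 bp) and YY1 (score 52.0, rank 22.7%, −361 bp) summits were the weakest of the 10 genes in those lists. No list had a further summit within 2000 bp of TFB2M.

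TFB1M held an exact ZNF143 consensus at −483 bp that was 336 bp from the nearest ZNF143 summit. The nearest summits to that copy were SP1, 9 bp away, and a YY1 summit 16 bp away (at −494 bp, score 176, rank 8.18%). The ZNF143 summits of TFB1M lay elsewhere, the main one 24 bp from an NRF1 copy and 28 bp from the NRF1 summit.

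Among the replication genes, TWNK and POLG2 resembled the transcription genes in the NRF1 list, and POLG and SSBP1 did not. TWNK (ENSG00000107815.10, chr10:100987367-100994403, plus strand) encodes the Twinkle helicase. Its NRF1 summit was at −43 bp (score 2601, rank 5.38%), or −219 bp from the canonical start. SP1 at +120 bp (score 113, rank 16.6%), ZNF143 at +133 bp (score 4.35, rank 82.4%) and YY1 at +148 bp (score 112, rank 12.4%) formed a group of their own within 28 bp. That ZNF143 summit was the weakest of the set. TWNK was the only one of the genes with an exact SP1 consensus within 50 bp of its highest SP1 summit, beside 26.5% of all protein-coding genes with an SP1 summit.

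The TWNK group of SP1, ZNF143 and YY1 summits also sat on an ETS copy, 3 bp from the YY1 summit and 12 bp from the ZNF143 summit. It is shown with the copy in capitals.

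TWNK, ETS consensus (chr10:100987499-100987525): aacctcgaggCTTCCGGttccgggacg

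POLG2 (ENSG00000256525.8, chr17:64477785-64497054, minus strand) encodes the accessory subunit of the mitochondrial DNA polymerase. It had an NRF1 summit with a score of 6680 at −19 bp (rank 2.36%), below POLRMT alone among the 10 genes. YY1 at −128 bp (score 789, rank 2.11%) and SP1 at −119 bp (score 224, rank 10.2%) lay 9 bp apart. ZNF143 was on the other side of the start, at +220 bp in a coding exon (score 76.4, rank 23.8%), with a weak further summit at −386 bp (score 6.04). The 4 further SP1, 3 further NRF1 and 2 further YY1 summits, between +780 and +1814 bp, had ranks from 35.3% to 84.8%.

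POLG (ENSG00000140521.18, chr15:89305198-89334861, minus strand) encodes the catalytic subunit of the same polymerase, and its pattern differed from that of POLG2. Its NRF1 summits were the weakest highest summits of the set, with a score of 20.4 at −160 bp (rank 25.3%) and 12.0 at +92 bp. Its SP1 summit was the strongest of the set, with a score of 1251 at −70 bp (rank 1.43%). YY1 lay at +398 bp, in an intron (score 475, rank 3.23%). A pair of ZNF143 summits at +20 and +183 bp had nearly equal scores, 368 and 354 (ranks 15.4% and 15.6%). The only NRF1 consensus copy within 1000 bp, at +321 bp, was 233 bp from the nearest NRF1 summit.

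The surroundings of the POLG SP1 summit (chr15:89334896-89334966) are shown because this summit, the strongest SP1 summit of the set, had no exact SP1 consensus within 50 bp. That lack was common. Of the 10 genes only TWNK had such a copy, as did 26.5% of all protein-coding genes with an SP1 summit. The capital marks the summit base.

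POLG: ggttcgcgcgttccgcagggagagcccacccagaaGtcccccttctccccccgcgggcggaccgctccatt

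SSBP1 (ENSG00000106028.11, chr7:141738334-141787922, plus strand) encodes the protein that coats single-stranded mitochondrial DNA. It had the most compact arrangement: SP1 at −78 bp, ZNF143 at −54, NRF1 at −49 and YY1 at −26 lay within 52 bp. SP1 (score 573, rank 3.97%) and YY1 (score 629, rank 2.56%) were strong. NRF1 (score 42.8, rank 18.8%) and ZNF143 (score 19.9, rank 40.8%) were not. The stretch from −95 to −10 bp (chr7:141738239-141738324) is shown because it holds all 4 summits, marked as capitals in that order. None had an exact copy of its own consensus within 50 bp.

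SSBP1: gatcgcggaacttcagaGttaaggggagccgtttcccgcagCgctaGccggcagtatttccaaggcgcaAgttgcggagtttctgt

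SSBP1 and POLG were thus the 2 genes with no strong NRF1 summit, and both had strong SP1 and YY1 summits. TFB2M and TWNK were the reverse, with a strong NRF1 summit and no other strong one.

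**Figure D3:**
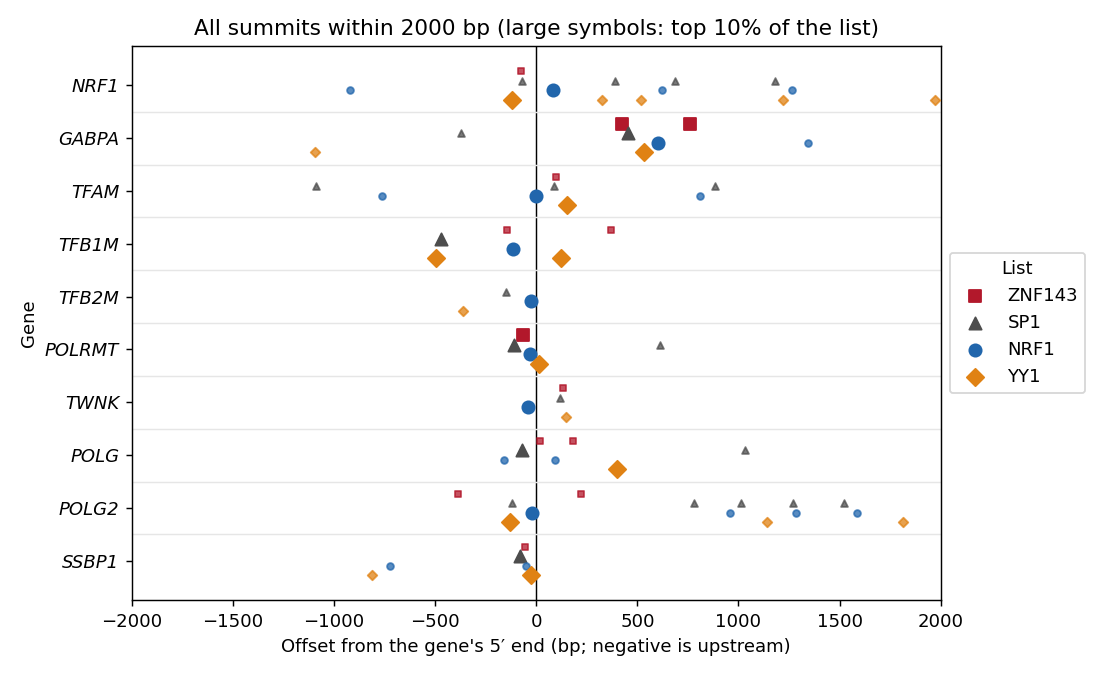
All summits within 2000 bp of the 5′ end of each gene, by offset in bp, with 1 symbol per list and large symbols for summits in the top 10% of their list. Large symbols lie between −494 bp (YY1 at TFB1M) and +759 bp (ZNF143 at GABPA), and the outer summits are small.

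The positions of the highest summits were compared next. The median offset was −27.5 bp for NRF1, −74.0 for SP1, +20.0 for ZNF143 and +68.5 for YY1. In all protein-coding genes these medians were −14.0, −26.0, −6.0 and +86.0 bp. The medians of the 10 genes depend on the 5′ end used. The Ensembl canonical start lay 402 bp further downstream at GABPA, 176 bp at TWNK and 65 bp at TFAM. From the canonical start of TWNK, ZNF143 lay at −43 bp and YY1 at −28 bp. Measured from canonical starts, the ZNF143 and YY1 medians of the 10 genes lay upstream, not downstream. The highest NRF1 summit was upstream of the 5′ end at 8 of the 10 genes, beside 53.7% of all protein-coding genes with an NRF1 summit. It was within 200 bp of the 5′ end at 9, all but GABPA, beside 55.2%. Between the outermost of the 4 highest summits lay a median of 191 bp at the 9 genes with all 4 lists, from 52 bp at SSBP1 to 591 bp at TFB1M. The median over the 7046 protein-coding genes with all 4 was 276 bp.

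The highest NRF1 summit had a ZNF143 summit within 100 bp at 4 genes (TFAM, TFB1M, POLRMT and SSBP1), beside 28.6% of protein-coding genes with an NRF1 summit. It had an SP1 summit within that distance at 5 (TFAM, POLRMT, POLG, POLG2 and SSBP1; 50.0%) and a YY1 summit at 3 (GABPA, POLRMT and SSBP1; 38.4%). With 10 genes, none of these counts was far from the background. POLRMT and SSBP1 had all 3 other factors within 100 bp of NRF1, and TFB2M, TWNK and the NRF1 gene had none. At those 3 genes the nearest summit of another list was 123, 163 and 154 bp away, in each case SP1. The shares of all genes with all or none of the other factors within 100 bp were not taken.

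**Figure D4:**
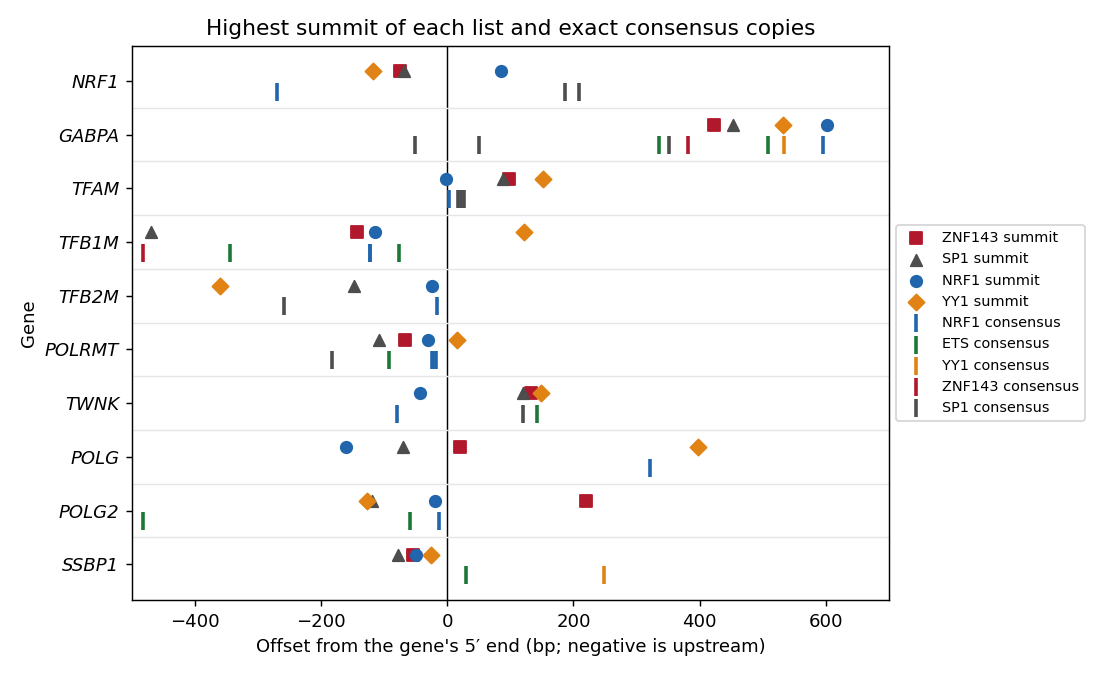
Highest summit of each list (symbols, upper line of each gene) and exact consensus copies (ticks, lower line) around the 5′ end, by offset in bp. Blue ticks of the NRF1 consensus lie under or beside the blue NRF1 symbol at 7 genes, and at the NRF1 gene and POLG they lie away from it.

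Within 500 bp of the 5′ end, the NRF1 consensus was present at 8 of the 10 genes, beside 14.6% of all protein-coding genes. It was missing at SSBP1 and GABPA, where the copy lies at +596 bp. The ETS consensus was present at 6 (GABPA, TFB1M, POLRMT, TWNK, POLG2 and SSBP1), beside 20.8%. At 5 of these, all but SSBP1, an ETS copy lay within 50 bp of the highest summit of some list, at GABPA the copy at +508 bp. The share was 18.8% of the 10956 protein-coding genes that, like these 10, have NRF1, SP1 and YY1 summits. No antibody against GABPA was used, so its binding was not measured. The ZNF143 consensus was present at GABPA and TFB1M (6.65% of all), the YY1 consensus at SSBP1 alone (7.53%; the GABPA copy is at +533 bp) and the SP1 consensus at 6 (55.7%). The SP1 share was thus near the background.

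The ETS copies at TFB1M and POLG2 lay within 50 bp of the NRF1 summit, 42 and 37 bp from it, and are shown for that reason. The stretches do not reach the NRF1 copies of these genes. Capitals mark the ETS copy.

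TFB1M, ETS consensus (chr6:155314547-155314585): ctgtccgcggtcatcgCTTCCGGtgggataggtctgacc

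POLG2, ETS consensus (chr17:64497091-64497129): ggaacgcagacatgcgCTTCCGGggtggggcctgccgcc

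Another annotated gene started within 2000 bp at 6 of the 10 genes, in each case with a start on the opposite strand. The share of all protein-coding genes with such a neighbour was not taken, so this count does not set the 10 genes apart. Protein-coding neighbours on that strand were CNST at −183 bp of TFB2M, MRPL43, a mitochondrial ribosomal protein gene, at +148 bp of TWNK, and ATP5PF at GABPA. Long noncoding RNA genes began at −49 bp of the NRF1 gene, −192 bp of POLG (POLG-DT), +12 bp of SSBP1 (WEE2-AS1) and −1753 bp of TWNK. POLGARF, on the POLG strand, began at +1052 bp. Summits between such starts cannot be assigned to either gene. The YY1 summit of TFB2M at −361 bp lay beyond the start of CNST, and the YY1 summit of TWNK lay at the annotated start of MRPL43. TFAM, TFB1M, POLRMT and POLG2 had no such neighbour.

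A wider list of 37 genes of mitochondrial DNA repair, transcription, nucleotide supply, nucleoids and nuclear regulation was all found in the annotation. NRF1 summits were present at 32 of them (86.5%) and strong ones at 11 (29.7%), against 8 of the 10 genes described above. The median rank was 17.9%, near that of all genes. Of 78 mitochondrial ribosomal protein genes, 72 had an NRF1 summit (92.3%) and 27 a strong one (34.6%), with a median rank of 17.8%. Strong YY1 summits were at 62.2% of the wider list and 87.2% of the ribosomal protein genes, strong SP1 summits at 54.1% and 57.7%, and strong ZNF143 summits at 10.8% and 20.5%. Summits of all 4 lists were at 54.1% of the wider list and 78.2% of the ribosomal protein genes. These differences were not tested.

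Within the wider list, strong NRF1 summits were at 3 of 9 genes of replication and repair, 0 of 5 of transcription, 3 of 11 of nucleotide supply, 3 of 5 of nucleoids and membrane dynamics and 2 of 7 nuclear regulators. The highest NRF1 scores were at LONP1, the matrix protease that degrades TFAM (19909, rank 0.0689%, −32 bp), TK2, mitochondrial thymidine kinase (14749, rank 0.286%, 0 bp) and OPA1, an inner membrane fusion protein (10062, rank 1.03%, −20 bp). LONP1 and TK2 thus exceeded POLRMT. The highest ZNF143 scores were at PPRC1, a coactivator of NRF1 (27795, rank 0.260%, −52 bp), and SUCLG1, a subunit of succinate-CoA ligase (6159, rank 4.42%, +584 bp). PPRC1 had an NRF1 summit of rank 16.4%, and SUCLG1 had none within 2000 bp of its 5′ end. MPV17, PPARGC1A and TOP1MT had no summit of any list within 2000 bp of the annotated 5′ end. Summits further away or at other starts of these genes are not described here.

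The pattern of 4 ranks most like that of the NRF1 gene was that of MED28, a Mediator subunit, whose ranks differed by at most 2.01 percentage points in any list. ZNF14 and C1orf56 followed, with largest differences of 2.87 and 2.89 points. The likeness was measured over 4 lists only.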

How the data were processed

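The authors' deposited files were 4 lists of 1-bp summits, whose values are, from layout and range, either −log10 p-values or −log10 q-values (which is not stated). Cutadapt, Bowtie2, SAMtools 1.16.1, MACS3, bedtools and hg38 are named in the submitters' processing notes, without roles; thresholds and filters are not given in the sources used here. The SP1 and ZNF143 lists were matched to samples through the labels and the NRF1 and YY1 lists through the antibody in the file name. Depth is unknown from the lists.

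Summits on chromosomes 1 to 22 and X were ranked by score within each list and measured from GENCODE 44 gene 5′ ends on hg38 with Python 3.11.15, pandas 2.3.3 and pysam 0.24.0. Consensus sequences were matched exactly on both strands, wholly within 50 bp of a summit or 500 bp of a 5′ end. Code was tested on made-up positions and sequences. Shares over all protein-coding genes are the background. No test was made, since the lists have no replicates and genes are not replicates. The 10 genes and the gene lists were chosen with earlier results of these data known. All 10 were named. Of the wider list, the rule named the 3 highest NRF1 scores, the 2 highest ZNF143 scores and genes without any summit within 2000 bp. Likeness was the largest difference in rank over the 4 lists. Alternatives changed the distances, the 5′ end used, the score threshold, the list length and the mismatches.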

Additional observations from a re-analysis of the deposited data

Results flagged for a closer look

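The ZNF143 list held 28 summits on the mitochondrial sequence itself, which no comparison above used. They belonged to 1 peak and lay between positions 244 and 16072, with scores from 4.83 to 50.2 and a median of 32.8. The SP1, NRF1 and YY1 lists held 0 summits there. The deposited names of those lists carry the word final, and that of the ZNF143 list does not. Whether all lists were filtered alike is not stated, so the contrast cannot be read as particular to ZNF143. Whether these signals differ from the mock precipitation was not tested.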

How the results depend on the processing

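Of 54 alternative values for 12 counts, 44 stayed within 1.5 times the reported count. These include every count of genes with a summit within 2000 bp, under shorter distances, other 5′ ends, stricter scores, equal list lengths and the highest summit per peak. The lowest of these counts was 7. It was reached by SP1 at equal list length (37.6% of all genes) and by ZNF143 in the top 50% of its list (23.1%). The counts of strong summits were not among the 12 and were not varied. Distance moved the sharing with the highest NRF1 summit. Within 250 bp the counts were 9 for ZNF143, 9 for SP1 and 8 for YY1, and within 50 bp the SP1 count was 1. For a consensus within 50 bp of any summit, 1 mismatch gave 10 genes for ETS (5 exact), 5 for YY1 (1 exact), 8 for ZNF143 (2 exact) and 10 for SP1 (2 exact). Within 100 bp the exact counts were 2 for YY1 and 5 for SP1. Wider windows and looser matches find more by construction. Shares over all genes were not taken for these changed distances and mismatches, so these counts have no background. No paired analysis was possible because the lists give no value per sample. Depth per sample is unknown, and a weak or missing summit, such as ZNF143 at TFB2M, may lie under the authors' threshold.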
